A study of Rattus norvegicus with 64 samples.

Results

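Heart muscle genes were read in pieces of rat lung. The 10 genes described here are Ryr2, Ttn, Myh6, Myl7, Myl3, Mybpc3, Actc1, Tnnt2, Tnni3 and Ldb3, which build or trigger the contractile unit of heart muscle, and they are 10 of the 30045 gene symbols in the count tables. They were picked by name, with the values of these libraries already known, chiefly their difference between dust and air on day 7 of the 30 mg/m3 study. That comparison is therefore given as values of the members, with no test of them. All animals were male Sprague-Dawley rats, an outbred strain, and inhaled dust of fracking sand, the mineral sand pumped into wells in hydraulic fracturing, or filtered air as control, on 4 days of 6 hours in a whole-body chamber. In the 10 mg/m3 study, air and dust groups held 5 rats each on day 1, 5 each on day 7 and 4 each on day 27 after exposure. In the 30 mg/m3 study, with its own air rats, each of the 6 groups held 6. RNA came from 1 piece of lung per rat, depleted of ribosomal RNA; the lobe, the distance from the hilum and the age of the rats are not stated in the labels. Each of the 64 libraries has a title with a number taken here as that of 1 rat. The studies were fitted separately, so a p-value sets a difference against the spread between rats of the same group within 1 study.

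In heart muscle, thick filaments of myosin slide along thin filaments of actin when calcium leaves its store through the Ryr2 channel and binds the troponin complex. Ttn, the giant spring protein, runs from the Z-disc to the middle of the sarcomere, and Ldb3 holds the Z-disc together. In rodents a sleeve of heart muscle continues from the left atrium along the pulmonary veins into the lung, so a piece of lung can carry these transcripts without any heart tissue attached. Among the members, Myl7 is the regulatory myosin light chain typical of atrial muscle, and Myl3 the essential light chain typical of ventricular and slow muscle. Myh6, the alpha heavy chain, is used in both chambers of the adult rat heart. In bulk tissue, fewer muscle cells and less RNA per muscle cell cannot be told apart.

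All 10 members had a promoter sequence in the RefSeq table of the rat assembly GRCr8, 11 promoters in all, since Tnnt2 has an alternative start. The 250 bases before the start site are shown for 5 members: Myl7 and Myl3, because their levels parted from each other in these lungs, Myh6 and Mybpc3, which moved together, and Ttn, which kept a level of its own in libraries where Myh6 was at 0. They lie at chr14:84996625-84996874 for Myl7, chr8:119616844-119617093 for Myl3, chr15:32411698-32411947 for Myh6, chr3:97550811-97551060 for Mybpc3 and chr3:82332111-82332360 for Ttn. Myl3 and Mybpc3 are on the plus strand and Myl7, Myh6 and Ttn on the minus strand. Each is written 5′ to 3′ on the gene's strand, with motif matches in capitals.
Myl7: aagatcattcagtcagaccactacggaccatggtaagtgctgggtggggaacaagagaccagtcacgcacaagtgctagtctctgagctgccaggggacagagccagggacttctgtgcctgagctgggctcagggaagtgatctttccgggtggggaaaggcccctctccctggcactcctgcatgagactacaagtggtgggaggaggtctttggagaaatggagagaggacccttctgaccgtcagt
Myl3: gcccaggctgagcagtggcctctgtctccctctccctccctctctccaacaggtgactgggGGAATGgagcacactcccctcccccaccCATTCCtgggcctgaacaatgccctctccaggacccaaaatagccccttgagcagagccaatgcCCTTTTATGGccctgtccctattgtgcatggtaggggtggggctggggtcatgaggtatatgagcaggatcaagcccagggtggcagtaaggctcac
Myh6: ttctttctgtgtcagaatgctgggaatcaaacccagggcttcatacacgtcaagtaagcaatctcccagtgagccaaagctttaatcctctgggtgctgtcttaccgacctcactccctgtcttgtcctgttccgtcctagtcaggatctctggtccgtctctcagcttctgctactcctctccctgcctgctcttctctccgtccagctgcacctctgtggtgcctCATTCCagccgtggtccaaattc
Mybpc3: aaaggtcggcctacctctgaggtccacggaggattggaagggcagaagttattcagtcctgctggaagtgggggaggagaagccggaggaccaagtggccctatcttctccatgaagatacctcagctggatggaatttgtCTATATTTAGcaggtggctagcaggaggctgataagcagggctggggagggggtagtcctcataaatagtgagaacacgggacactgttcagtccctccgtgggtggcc
Ttn: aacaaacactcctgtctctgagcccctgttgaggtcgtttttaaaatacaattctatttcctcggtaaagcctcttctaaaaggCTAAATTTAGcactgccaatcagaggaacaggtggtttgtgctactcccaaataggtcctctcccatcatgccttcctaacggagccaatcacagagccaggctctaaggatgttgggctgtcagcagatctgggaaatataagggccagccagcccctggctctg
Motifs were searched on both strands: the MCAT motif CATTCC, the GATA motif AGATAA, the TATA box TATAAA, the CArG box and the MEF2 box, the last 2 by their usual degenerate forms. Myl3 held 2 MCAT matches and 1 CArG box, Myh6 held 1 MCAT match starting at position -23 from the start site, and Mybpc3 and Ttn each held a MEF2 box, at -109 and -166. None of the 5 motifs was found in the window of Myl7. Over all 33469 promoter windows of this length, 12.1% held CATTCC, 10.3% AGATAA, 12.9% TATAAA, 1.5% a CArG box and 0.523% a MEF2 box. Among the 10 members, CATTCC was present in 3 (Myh6, Myl3 and Tnnt2), AGATAA in 2 (Tnni3 and Tnnt2), a CArG box in 2 (Ldb3 and Myl3), a MEF2 box in 2 and TATAAA in none. A match is a string of letters and does not show that a factor binds there.

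The libraries held 3420235 to 12359518 counts, so a count of 3 corresponded to 0.243 to 0.877 CPM, the counts in each 1000000 of the library, by library total alone. Sftpc, the surfactant gene of alveolar type 2 cells, stood at 6689 to 13673 CPM over the 64 libraries. Apart from the CPM of a count of 3, all CPM levels given here are scaled by the library total times its trimmed-mean (TMM) factor. Sftpc is included in this, and the fitted differences are scaled likewise. Air rats 51 and 53 on day 1 of the 30 mg/m3 study stood apart, with 21889 and 22077 genes detected against 17873 to 19731 in the other 62 libraries. The smallest library was that of dust rat 27 on day 1 of the 10 mg/m3 study. Reads of Actc1 and of Myh6 may be split with near-identical copies in the actin and myosin families, and since the strand setting of the counting is not given, any antisense reads cannot be separated.

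The members ranged widely between lungs of the same treatment. Myh6, the main heart myosin, ran from 0 to 425.8 CPM over the 64 libraries with a median of 58.4 CPM. In air on day 1 of the 10 mg/m3 study, Myh6 was at 37.3, 0, 19.1, 336.7 and 0.303 CPM in the 5 rats. In the dust rats of that day it was at 27.0, 73.6, 0, 143.0 and 75.6 CPM. Both groups thus held a lung with no Myh6 read, and the air group also held rat 20, among the highest of all 64 libraries. In air on day 7 the values were 0.246, 0, 0.430, 289.6 and 6.23 CPM, so 1 rat, number 37, carried almost all of the reads. In dust on day 7 they were 8.16, 184.0, 35.5, 425.8 and 133.9 CPM, and no dust lung lacked the transcript. On day 27 air lungs had 229.9, 0.598, 62.4 and 23.9 CPM, and dust lungs 16.1, 55.6, 62.5 and 0.482 CPM. The 2 groups overlapped on every day of the 10 mg/m3 study.

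In the 30 mg/m3 study every library held Myh6, at 4.32 CPM or more. The lowest, median and highest values were 17.6, 59.8 and 144.6 CPM in air on day 1 and 4.32, 47.6 and 134.1 CPM in dust on day 1. On day 7 they were 119.7, 167.2 and 403.1 CPM in air and 8.96, 31.2 and 74.3 CPM in dust. On day 27 air lungs ran from 6.26 to 143.5 CPM with a median of 70.6 CPM, and dust lungs from 16.9 to 153.5 CPM with a median of 108.3 CPM. By group median, the order of the 12 groups from low to high began with air on day 7 and air on day 1 at 10 mg/m3, followed by dust on day 7 at 30 mg/m3, and ended with dust on day 7 at 10 mg/m3 and air on day 7 at 30 mg/m3. Every pair of neighbours in that order overlapped. By this median, air on day 7 stood lowest of all groups in 1 study and highest of all in the other. The day 7 groups at 30 mg/m3 are those by which the genes were picked, so nothing is read from their places.

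**Figure D1:**
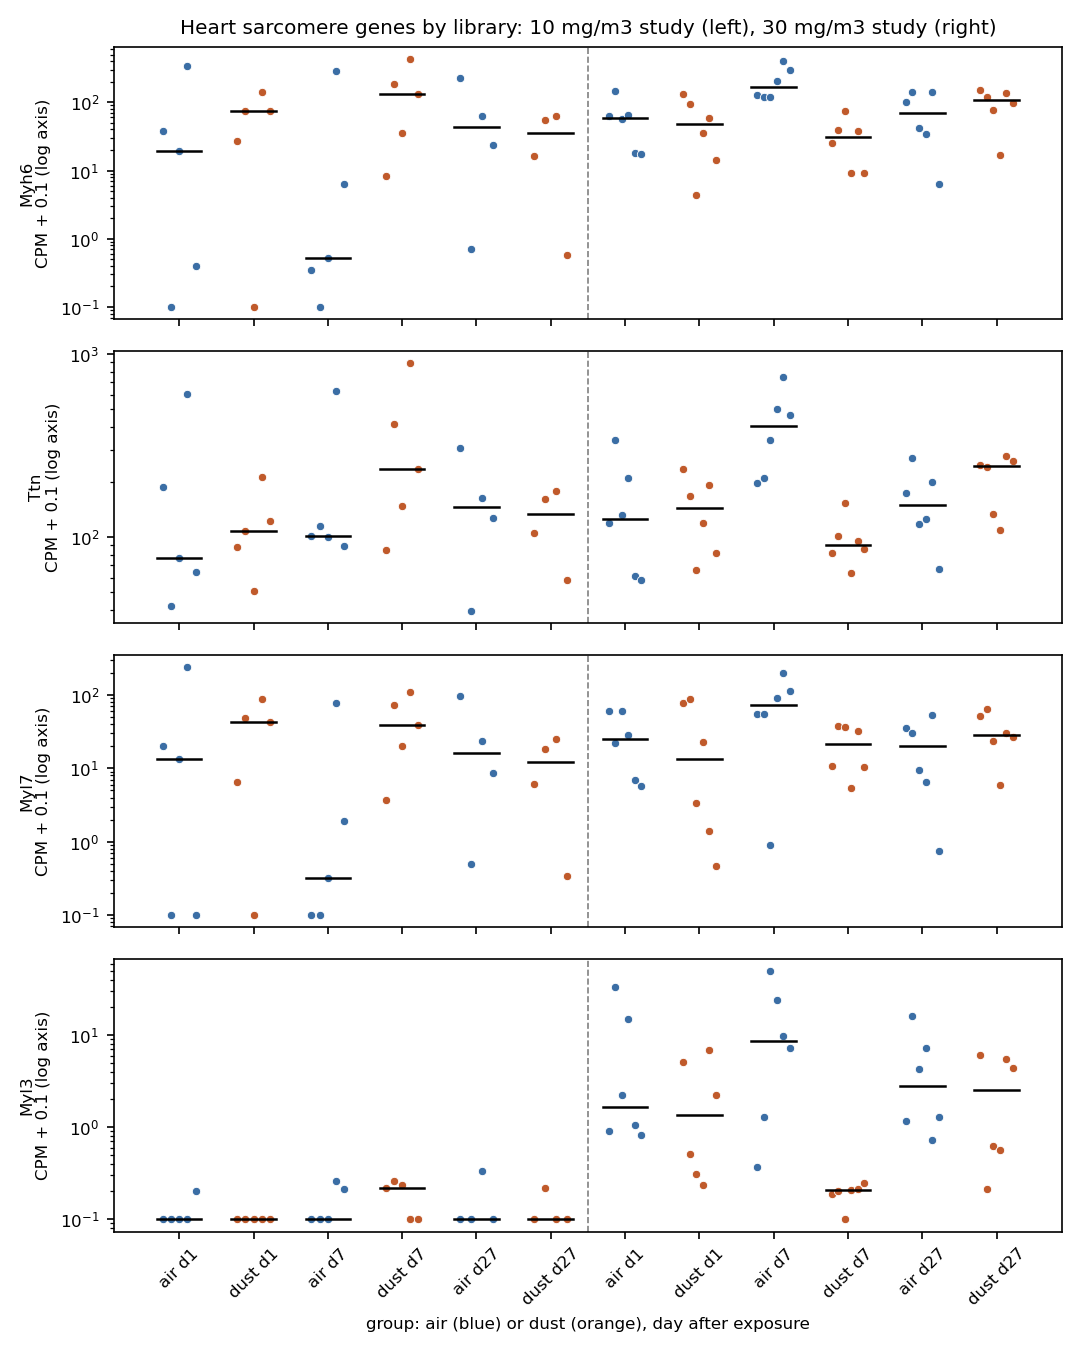
Level of Myh6, Ttn, Myl7 and Myl3 in each of the 64 libraries, as CPM plus 0.1 on a log axis, by group and day (air blue, dust orange, bars at group medians; 10 mg/m3 study left of the dashed line). Myh6 spans 0 to 425.8 CPM, Ttn never falls below 39.2 CPM, and Myl3 stays at or below 0.231 CPM in the whole 10 mg/m3 study while reaching 49.04 CPM in the 30 mg/m3 study.

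Calcium release and the elastic filament kept a floor that the myosins lacked. Ryr2 ran from 1.99 to 91.3 CPM with a median of 13.02 CPM, and Ttn from 39.2 to 888.7 CPM with a median of 132.5 CPM. Neither was at 0 in any library. The 3 libraries with 0 reads of Myh6 were air rat 18 and dust rat 30 of day 1 and air rat 34 of day 7, all at 10 mg/m3, and they had 0 reads of Myl7 and Myl3 as well. In the same 3 lungs, Ttn stood at 41.9, 50.5 and 115.3 CPM. Ryr2 was at 3.97, 3.04 and 4.02 CPM there, and Ldb3 at 4.18, 4.26 and 5.76 CPM. Actc1, the heart actin, was at 53.8, 30.9 and 22.1 CPM. Mybpc3, the myosin binding protein of heart thick filaments, had 3 reads in each of them. Tnnt2 had 28, 7 and 12 reads there and Tnni3 8, 11 and 7. So in lungs with no detectable Myh6, Ttn, Ryr2, Ldb3 and Actc1 had 30 reads or more each, and both troponins more than 3.

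The troponins and the other filament genes lay between these extremes. Tnnt2, the tropomyosin-binding troponin subunit, ran from 0.646 to 66.7 CPM with a median of 12.1 CPM. Tnni3, the inhibitory subunit of heart troponin, ran from 0.398 to 64.9 CPM with a median of 9.39 CPM. Mybpc3 ran from 0.123 to 45.9 CPM and Actc1 from 15.2 to 251.9 CPM. Ldb3 had the narrowest range, 4.18 to 24.8 CPM. The highest library was the same for several members: dust rat 47 of day 7 at 10 mg/m3 for Ryr2, Ttn, Myh6 and Ldb3, air rat 20 of day 1 at 10 mg/m3 for Myl7, Actc1, Tnnt2 and Tnni3, and air rat 70 of day 7 at 30 mg/m3 for Mybpc3.

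Within groups, most members varied more between rats than the great majority of genes. The biological coefficient of variation, the fitted spread between rats of 1 group beyond counting noise, was 49.3% to 197.7% for the 9 members tested in the 10 mg/m3 study, against 13.6% for the median gene. Myl7 had 3 genes above it among 15668, Myh6 had 5 at 190.3%, and Ldb3, the least variable member, stood at the 97.9th percentile. In the 30 mg/m3 study the range was 25.5% for Ldb3 to 123.1% for Myl3, against 12.7% for the median gene, Myh6 was at 78.8%, and Ldb3 stood at the 86.7th percentile. The 10 mg/m3 fit did not include Myl3, whose counts were too low.

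Across libraries the members kept step with each other. In the 10 mg/m3 study the 36 pairs among 9 members had Spearman rho of 0.804 to 0.988 over 28 libraries, with a median of 0.881. In the 30 mg/m3 study the 45 pairs had a median of 0.831 over 36 libraries, and the range was wider, from 0.0497 to 0.962. The low end came from the light chains. Without Myl3 and Myl7 the 28 pairs left ran from 0.667 to 0.962 with a median of 0.904, whereas Myl3 had a median rho of 0.610 with the other 9 and Myl7 one of 0.659. These are descriptions: the libraries share group and batch, and the members were chosen as a set. Within groups, after subtracting group means, the median Pearson correlation was 0.903 at 10 mg/m3 and 0.764 at 30 mg/m3.

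**Figure D2:**
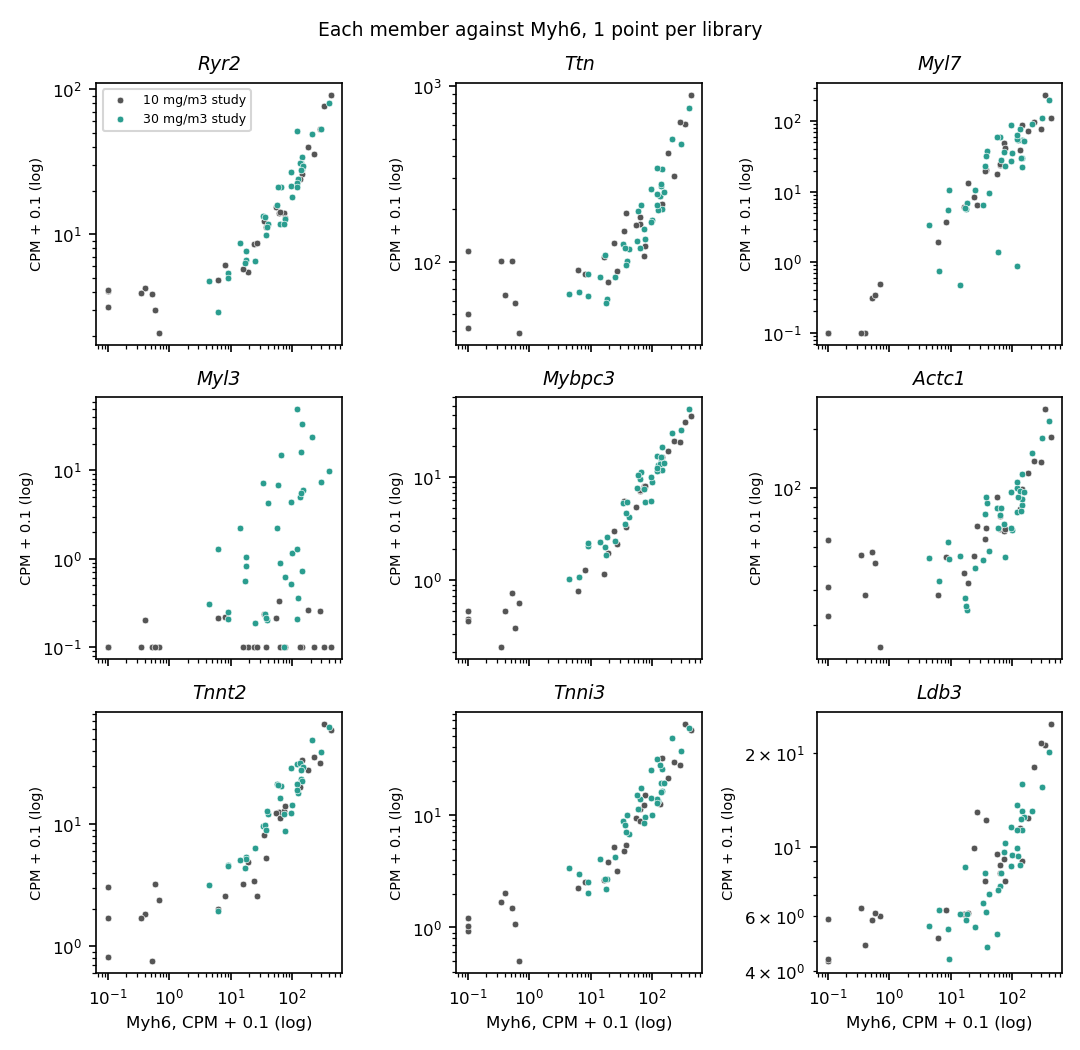
Each of the other 9 members against Myh6, 1 point per library, both axes CPM plus 0.1 on a log scale (grey, 10 mg/m3 study; green, 30 mg/m3 study). Ryr2, Ttn, Actc1 and Ldb3 level off at low Myh6, where Ttn stays at 39.2 CPM or more; Myl7 has a few points far below the trend, and Myl3 shows no single trend.

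Ratios of counts to Myh6 were steadier between libraries for some members than for others. In libraries with at least 200 counts of Myh6, the count of Mybpc3 per count of Myh6 varied 2.15-fold between the lowest and highest of 15 libraries at 10 mg/m3 and 2.89-fold over 28 libraries at 30 mg/m3. For Ryr2 the spread was 2.27-fold and 2.66-fold, and for Tnni3 2.40-fold and 2.66-fold. Tnnt2 varied 2.17-fold and 3.28-fold, Ttn 4-fold and 2.7-fold, Actc1 4.34-fold and 4.39-fold, and Ldb3 7.04-fold and 4.57-fold. Myl7 varied 2.71-fold at 10 mg/m3, but 160-fold at 30 mg/m3, from 0.00649 to 1.04 counts per Myh6 count. Myl3 reached 0.00379 counts per Myh6 count at 10 mg/m3 and 0.404 at 30 mg/m3, from 0 in both. The scale is counts of one gene per count of another, which depends on transcript length, so it is compared only between libraries.

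The Myl3 reads were nearly all in 1 study. Over the 28 libraries at 10 mg/m3, Myl3 had 9 counts in total, at most 2 in a library and 0 in 20 libraries. Over the 36 libraries at 30 mg/m3 it had 1682 counts and was at 0 in a single library. The atrial-type light chain Myl7 had 7951 counts at 10 mg/m3 and 11700 at 30 mg/m3. Myh6 had 18001 and 27827, and Myl4, the atrial essential light chain, 4616 and 5823. Of the 6 ventricular markers, none of them members, 4 were also read mostly at 30 mg/m3. Myl2, the ventricular regulatory light chain, had 6 counts at 10 mg/m3 and 624 at 30 mg/m3. Myh7, the beta heavy chain of ventricle and slow muscle, had 95 and 3255, and Irx4, a ventricular transcription factor, 0 and 18. Nppb, a natriuretic peptide gene of the same list, had 1 and 50, whereas Hey2 had 1862 and 2463 and Kcne1 was at 0 in both. The 2 studies were separate experiments with separate animals, so dose, study and any difference in dissection cannot be told apart, and no test between studies was made.

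Within the 30 mg/m3 study, the balance of the 2 light chains differed from lung to lung. The share of Myl3 in the summed Myl3 and Myl7 counts was 98.4% in air rat 68 of day 7 (435 of 442 counts; 95% exact binomial interval 96.8% to 99.4%, covering counting error only). Rat 68 had 121.5 CPM of Myh6 but only 7 counts of Myl7, and its Ttn, at 339.8 CPM, lay within its group. The share was 20.96% in rat 69 of that group and 0.484% to 6.02% in the other 4. In dust on day 1, the share was 83.8% in rat 61 (interval 68.0% to 93.8%) and 85% in rat 62, on 37 and 20 counts, while the other 4 rats had 0.464% to 6.04%. In air on day 1 it was 59.8% in rat 51 and 34.4% in rat 53, the 2 libraries with the most genes detected, and 1.33% to 12.2% in the other 4. In air on day 27 it was 64.7% in rat 87, 52.6% in rat 84, 34.8% in rat 82 and 30.97% in rat 83. In dust on day 27 no library exceeded 15.3%. The share was 10% or more in 15 of the 36 libraries, and these came from every group but 1: among the 6 dust lungs of day 7 it ran from 0 to 1.96%. That group belongs to the comparison by which the genes were picked, so nothing is read from its low share.

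**Figure D3:**
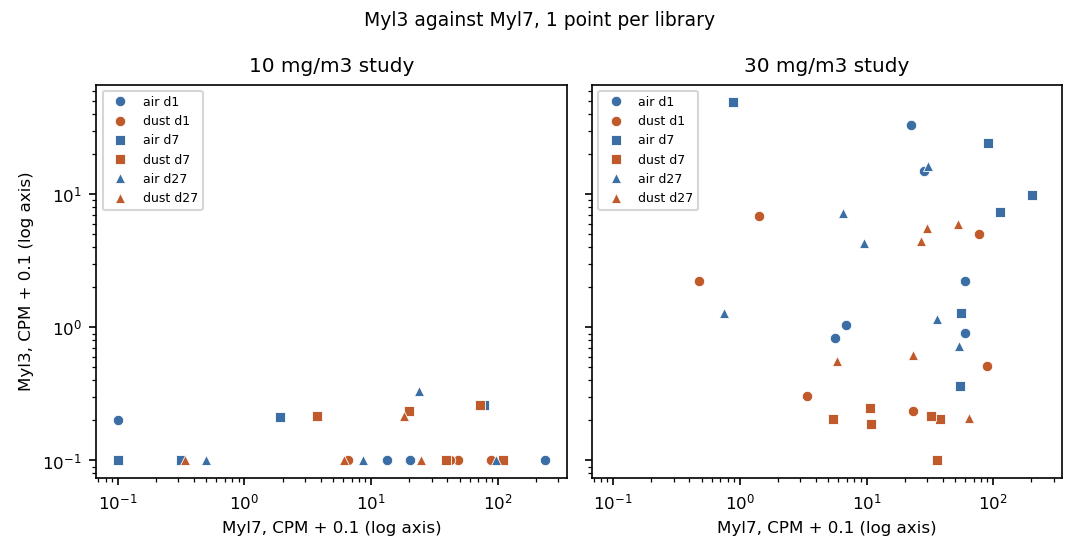
Myl3 against Myl7 in each library, both axes CPM plus 0.1 on a log scale, by study, treatment (air blue, dust orange) and day (circle 1, square 7, triangle 27). At 10 mg/m3 all points lie along the bottom, at 0 to 0.231 CPM of Myl3. At 30 mg/m3 the points fill the plane, and the 6 orange squares lie at the bottom, at 0 to 0.147 CPM. Those 6 belong to the comparison used to pick the genes.

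Myl3 and Myl7 each had partners among genes outside the set. Over the 36 libraries at 30 mg/m3, Myl3 had a rho of 0.0497 with Myl7, but of 0.929 with Myl2 and 0.938 with Myh7. Its rho was 0.722 with Nppb, a natriuretic peptide gene, and 0.624 with Irx4, both on few counts, and -0.06 with Hey2. Myl7 had a rho of 0.976 with Myl4 and 0.953 with Sln, the atrial regulator of the calcium pump, and of 0.981 and 0.963 with them at 10 mg/m3. With the other 6 atrial markers its rho was lower: 0.379 with Kcna5, 0.236 with Kcnj3, 0.143 with Fgf12, 0.120 with Nppa, 0.111 with Bmp10 and -0.31 with Gja5. With Myh7 and Myl2, Myl7 had rho of 0.0984 and 0.114. Myh6 and the remaining members, Myl3 not included, went with the mean of all 10, at rho of 0.846 to 0.970 in the 30 mg/m3 study, against 0.671 for Myl7. Each member is itself part of that mean, so a high rho with it is partly built in. These correlations are descriptions over libraries that share group and depth.

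On day 7 at 30 mg/m3, the comparison by which the genes were picked, all 10 members were lower in dust than in air. Ryr2 had 22.3, 50.2 and 80.1 CPM as lowest, median and highest in air and 4.86, 8.11 and 11.7 CPM in dust. Ttn had 197.1, 402.9 and 750.5 CPM in air and 63.3, 90.3 and 153.4 CPM in dust. Myh6 showed the gap between 119.7 CPM in the lowest air lung and 74.3 CPM in the highest dust lung. Mybpc3 had 11.4, 21.4 and 45.9 CPM in air and 2.03, 3.33 and 7.65 CPM in dust. Tnnt2 had 18.0 to 62.9 CPM in air and 4.42 to 12.7 CPM in dust, and Tnni3 13.3 to 59.04 against 1.92 to 9.84 CPM. Actc1 was barely separated, at 90.04 to 219.0 CPM in air and 38.97 to 89.4 CPM in dust. Groups overlapped for Myl7, at 0.789 to 200.8 CPM in air and 5.33 to 37.8 CPM in dust, and for Ldb3, at 9.24 to 20.1 and 4.27 to 9.53 CPM. Thus 8 of 10 members did not overlap, all lower in dust, as did 0.579% of the 15551 genes tested in that direction, the members included. The members were picked for this contrast, so nothing is read from it.

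Fitted log2 differences of dust from air on that day were -2.71 ± 0.71 (SE) for Myh6, -2.58 for Tnni3, -2.55 for Mybpc3, -2.50 for Ryr2, -2.18 for Tnnt2, -2.09 for Ttn, -1.96 for Myl7, -1.22 for Ldb3 and -1.18 ± 0.35 for Actc1. Myl3 stood alone. Its counts in the 6 air lungs ran from 2 to 435 and summed to 789, and in the 6 dust lungs it had 1 count in 5 and 0 in 1, 5 in all. Scaled for depth, the summed air counts were 166-fold the dust counts, and 90.04-fold without rat 68. These ratios pool reads over rats, so they describe the counts and carry no measure of the spread between rats. The fitted value of -7.17 for Myl3 depends on the prior count and is not a bound. The median over the members was -2.34 with it and -2.18 over the 9 others, against -0.0019 for all genes. As background, the fit called 10 of the 15551 genes at an adjusted 0.05, all lower in dust, 0.0643% of those tested, and 0 to 21 genes when 1 library was left out. This share is over all genes tested, the members included, so it is not a background apart from them. No call is given for the members.

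The ventricular markers were uneven on day 7 at 30 mg/m3. Myh7 had 16 to 501 counts in the air lungs and 0 to 6 in the dust lungs, and Myl2 had 4 to 85 and 0 to 1. Hey2, a transcription factor gene of the same list, had 53 to 85 and 41 to 95, and its groups overlapped. Both groups of lungs held atrial-type transcripts: Myl7 had 7 to 1646 counts in air and 50 to 365 in dust. The list of 6 ventricular markers summed to 9.77 to 75.9 CPM in air and 6.04 to 10.5 CPM in dust, most of the latter Hey2. The 8 atrial markers summed to 134.7 to 216.4 and 116.8 to 148.2 CPM. Among them Myl4 had a median of 31.9 CPM in air and 11.1 CPM in dust, and Sln 4.60 and 0.676 CPM. Of the 6 atrial markers fitted, 4 had values below 0 and 2 above. In air on day 7 at 10 mg/m3, where Myl4 had a median of 0.491 CPM, the atrial list still summed to 104.5 CPM or more. Other measures were taken in the air and dust lungs of day 7 at 30 mg/m3, and their sources were not tested. Mitochondrial ribosomal RNA took 0.458% to 0.885% of counts in air and 0.109% to 0.453% in dust, without overlap. Alb, the liver's albumin, stood at 15.6 to 370.3 CPM in air and 7.09 to 12.4 CPM in dust, with 5 of the 6 air lungs at 15.6 to 32.1 CPM and rat 65 at the top, and 8 of the 9 liver markers tested were lower, with the list of 12 summing to 61.7 to 545.3 against 64.7 to 84.2 CPM and no marker at 0 throughout either group. Smooth muscle markers summed to 1994 to 2655 CPM in air and 1968 to 2633 CPM in dust, and the 8 alveolar type 2 markers to 20760 to 23970 and 22480 to 25730 CPM. Their part in the difference of the members was not tested. Over the whole study the mean log2 CPM of the members had a rho of 0.323 with the mitochondrial share and 0.223 with Alb.

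**Figure D4:**
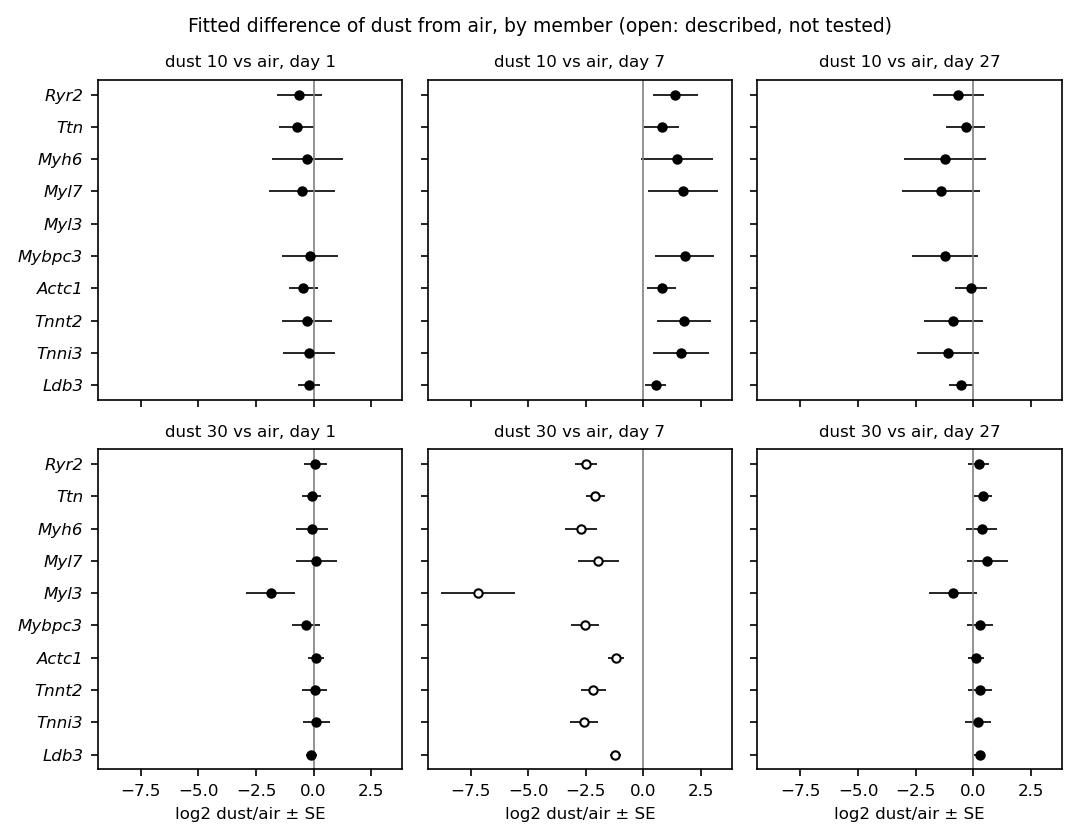
Fitted log2 difference of dust from air (± SE) for each member in the 6 comparisons; open symbols mark the comparison used to pick the genes, and Myl3 is missing at 10 mg/m3, where it was not tested. Members lie mostly on 1 side of 0 in 5 panels and are split 5 to 5 on day 1 at 30 mg/m3, with medians of -0.28, 1.45 and -0.86 at 10 mg/m3 and -0.01, -2.34 and 0.28 at 30 mg/m3, and none of the filled points passed the test.

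In the other 5 comparisons of dust with air, no member passed edgeR's quasi-likelihood test. On day 1 at 10 mg/m3, 9 of 9 members had values below 0, from -0.74 ± 0.76 (SE) for Ttn to -0.15 ± 1.22 for Mybpc3, with adjusted p of 0.621 to 0.960. Of all genes tested, 0.128% were called there. The sign rested on air rat 20: without it the median of the members was 1.92 in place of -0.28. On day 7 at 10 mg/m3, the same 9 members had values above 0, from 0.53 ± 0.47 for Ldb3 to 1.79 ± 1.27 for Mybpc3, with Myh6 at 1.45 ± 1.57 (adjusted p = 0.996 for each), and the share of genes called was 0%. The median of 1.45 was 3.68 without air rat 37 and 0.64 without dust rat 47. On day 27 at 10 mg/m3, 9 of 9 were below 0, from -1.39 ± 1.70 for Myl7 to -0.11 ± 0.70 for Actc1 (adjusted p = 0.9997 for each; 0% of genes called). The median of -0.86 became 0.21 without air rat 1. No member had an unadjusted p under 0.05 in these 3 comparisons, against 2957, 620 and 369 genes overall.

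At 30 mg/m3 the standard errors were smaller and the differences on days 1 and 27 nearer to 0. On day 1, 5 members were above and 5 below 0; Tnni3 was at 0.11 ± 0.58 (SE), Ryr2 at 0.08 ± 0.48 and Myh6 at -0.08 ± 0.68. The farthest from 0 was Myl3 at -1.87 ± 1.07, with an adjusted p of 0.382 in edgeR's test, and it was at 0.98 without air rats 51 and 53. Air lungs held 0.729, 1.54 and 33.1 CPM of Myl3 as lowest, median and highest that day, and dust lungs 0.135, 1.27 and 6.74 CPM. On day 27, 9 of 10 members were above 0, from 0.11 ± 0.35 for Actc1 to 0.60 ± 0.89 for Myl7, and Myl3 was at -0.88 ± 1.03 (adjusted p = 0.962), or -0.02 without air rat 82. Ttn, at 0.42 ± 0.40, had 66.7 to 269.4 CPM in air and 108.9 to 278.0 CPM in dust. On both days 0% of genes were called, and no member had an unadjusted p under 0.05, against 2334 and 1141 genes overall. The groups compared here share no library with day 7. The 6 groups were in 1 fit, however, so the day 7 libraries entered the fitted spread, the standard errors and the p-values. The differences between days were not tested.

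Time without dust did not move the members past the threshold either. Between air lungs of day 27 and day 1, the median log2 difference of the 9 members at 10 mg/m3 was -0.30, from -0.73 ± 1.52 (SE) for Myl7 to 0.15 ± 0.49 for Ldb3, while 2.97% of all genes were called. Without air rat 20 that median was 1.92. At 30 mg/m3 the median of the 10 members was -0.14, from -0.68 ± 0.96 for Myl3 to 0.37 ± 0.67 for Myh6, and 12.9% of genes were called; without air rat 51 the median was 0.39. The smallest adjusted p among the members was 0.791 at 10 mg/m3 and 0.651 at 30 mg/m3 in edgeR's test.

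The 10 genes outside the set that went most closely with the mean of the members are named here in the order of the lower of their 2 within-study rho. Actn2, the Z-disc actinin of striated muscle, came first at 0.956, and Xirp2, an actin-binding protein of intercalated discs, next at 0.950. The creatine kinases Ckm and Ckmt2 followed at 0.944 and 0.936. Then came LOC103691832, a locus with no gene name, at 0.918, Eef1a2, a muscle and nerve elongation factor, at 0.917 and Tnnc1, the calcium-binding troponin subunit, at 0.916. Nrap, a muscle anchoring protein, was at 0.915, Cox6a2, a muscle subunit of cytochrome oxidase, at 0.914, and Casq2, the calcium store protein of the heart, at 0.902. Of 14876 genes outside the set with a mean of at least 1 CPM in both studies, 39 (0.262%) had a rho of 0.7 or more in both.

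By list, the rest of the heart muscle programme followed the members unevenly. Among measured genes of at least 1 CPM, a rho of 0.7 or more in both studies was reached by 5 of 8 other thick filament genes, among them Myom1 and Myom2, which link the myosin filaments at the middle of the sarcomere. It was reached by 8 of 14 calcium cycling genes, including the calcium pump Atp2a2, its inhibitor Pln and the store protein Casq2. Of heart energy genes 7 of 14 reached it, including the oxygen carrier Mb and the fatty acid carrier Fabp3. Of other Z-disc genes 4 of 11 did, of thin filament genes 1 of 6 (Tnnc1), and of heart transcription factors 1 of 8 (Tbx20). None of 13 ion channel and junction genes did, nor any of 12 smooth muscle, 9 liver or 5 skeletal muscle markers. Mesothelial markers, of the lining of the lung surface, ran the other way, with a median rho of -0.77 at 10 mg/m3 and -0.37 at 30 mg/m3, and 0 of 8 were above 0 in either study.

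Few genes of these lists were called in the comparisons. In the 5 comparisons of dust with air other than day 7 at 30 mg/m3, none of the genes in the 7 heart lists was called. On day 7 at 10 mg/m3 the medians were 0.96 for the 8 thick filament genes, 0.53 for the 14 calcium cycling genes and 0.48 for the 14 energy genes, 14 of 14 of which were above 0. The median of all genes tested was -0.007. Of these energy genes 7 of 14 followed the members across libraries, so their signs are not independent. The members' median of 1.45 that day was 0.64 to 3.68 with 1 library left out, and the lists were not refitted that way. On day 7 at 30 mg/m3 the median was -1.64 for thick filament genes, of which 10 were tested there, so the sets differ between studies. It was -0.79 for calcium cycling and -0.98 for energy genes, beside -0.31 for thin filament, -0.21 for Z-disc and -0.09 for ion channel and junction genes. Between air lungs of day 27 and day 1, the calls in these lists were Tmod1, Gja1 and Dsp at 10 mg/m3 and Des, Flnc, Kcnj2 and Kcnd3 at 30 mg/m3, all higher on day 27, and none of the 7 was among the genes with a rho of 0.7 or more with the members.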

How the data were processed

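The authors deposited 1 table per study of raw read counts, whole numbers for each gene symbol and library. The submitters' processing notes name build Rnor_6.0, HISAT2 2.1.0 (an aligner), HTSeq 0.6.1 (a counter), Trimmomatic 0.35, SAMtools 1.8 and bcl2fastq 2.19; annotation and strand setting: not given in the sources used here. Per the labels' protocols, libraries were stranded total RNA after ribosomal depletion.

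The tests on counts used edgeR 4.0.16 in R 4.3.3: TMM factors, filterByExpr (minimum count 10, minimum total 15), quasi-likelihood F test with robust estimation, the 6 groups of a study in 1 fit, and Benjamini-Hochberg adjustment over the 15668 and 15551 genes tested, at 0.05. Standard errors are the log2 difference over the square root of F. Alternatives were DESeq2 1.42.0, limma voom (limma 3.58.1), RLE factors, no low-count filter, only the compared groups, and leaving out libraries. Log2 CPM used a prior count of 1. The procedure was tested on simulated data.

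Groups came from the labels. Named genes are the 10 members, up to 3 genes of highest mean CPM per list and those called, and the 10 genes most like the members; some are not reported here; other list genes given as examples, and the genes set beside Myl3 and Myl7, were chosen after their values were seen. Members and lists were chosen with earlier results of these data known. No 2 libraries of a group agreed within counting noise (lowest chi-square per degree of freedom 2.07 over 142 pairs).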

Additional observations from a re-analysis of the deposited data

Results flagged for a closer look

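In each group of 4 to 6 rats, the highest or lowest log2 CPM of each member, and of the mean over the 10, was compared with the gap to its nearest neighbour as a share of the group's range (Dixon's test at 95%). Of 126 such checks 13 stood out; chance gives about 1 in 20, and the checks share libraries and genes.

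Most came from air rat 37 of day 7 at 10 mg/m3, which lay far above the other 4 air rats of its group. Its log2 CPM was 5.73 for Ryr2 against 1.96 to 2.29 in the others, 9.29 for Ttn, 4.47 for Mybpc3, 4.98 for Tnnt2, 4.80 for Tnni3, 4.43 for Ldb3 and 5.34 for the mean of the 10 members. Dust rat 30 of day 1 at 10 mg/m3 stood below its group for Myh6, at -3.07, the value of 0 counts.

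In the 30 mg/m3 study, air rat 68 of day 7 stood below its group for Myl7, at -0.14 against 5.76 to 7.65. Dust rat 75 of day 7 stood below for Myl3, at -3.09, where 0 counts were set against 1 count in each of the others. Air rat 87 of day 27 stood below for Tnnt2, at 0.97, and dust rat 92 of day 27 for Myh6, at 4.09, and for Tnni3, at 1.44.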

How the results depend on the processing

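No paired analysis was possible because each title number belongs to 1 rat, so no number is shared between groups. No member was called in 5 comparisons of dust with air, or between air groups over time, under any alternative run. On day 7 at 30 mg/m3, where the members have values only, their median was -2.34, and -2.48 to -2.10 with 1 library left out. The genes called there, 10 in all, became 55 by DESeq2, 6 without the filter, 36 with only the compared groups and 0 to 21 with 1 library left out. On day 1 at 10 mg/m3, the 20 genes called became 474 by DESeq2, 8 by limma voom, 11 with RLE factors, 5 without the filter, 3 with only the compared groups, and 1 to 1147 with 1 library left out. On day 27 at 10 mg/m3, 1 gene was called with only the compared groups. On day 1 at 30 mg/m3, 0 genes called became 40 by DESeq2, 877 without air rats 51 and 53, and 0 to 220 with 1 library left out. For air over time, the 466 genes at 10 mg/m3 became 945 by DESeq2, 706 by limma voom, 268 without the filter, 0 with only the compared groups and 2 to 1467 with 1 library left out, and the 2007 at 30 mg/m3 became 1052 without rats 51 and 53 and 1068 to 2778 with 1 left out.

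Signs changed where values were small against their error. With limma voom, Myh6 and Myl7 on day 1 at 10 mg/m3 were at 1.83 and 2.13, and Ttn and Myl7 on day 1 at 30 mg/m3 at 0.06 and -1.09; without rats 51 and 53, Myh6, Ttn and Myl3 on that day were at 0.57, 0.63 and 0.98. With 1 library left out, day 1 at 10 mg/m3 gave -0.81 to 2.31 for Myh6, -1.08 to 0.36 for Ttn and -1.09 to 2.31 for Myl7. Day 27 at 10 mg/m3 gave -1.71 to 0.24, -0.66 to 0.20 and -1.99 to 0.21 for them, and day 1 at 30 mg/m3 -0.56 to 0.39, -0.29 to 0.32 and -0.47 to 0.44. Air over time at 10 mg/m3 gave -1.45 to 2.59 for Myh6. The causes were not tested. The median correlation between members was 0.883 and 0.796 without TMM factors, and 0.888 and 0.841 by Pearson's r. Counts of 3 or fewer limit Myl3 in 40 of 64 libraries.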

Other observations

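The atrial natriuretic peptide gene Nppa, a hormone gene of atrial muscle, was read little in these lungs: 133 counts over the 64 libraries, with 0 in 43. Of these, 55 came from dust rat 47 of day 7 at 10 mg/m3, which also had the highest Myh6, and 26 from air rat 20 of day 1 at 10 mg/m3. Air rat 68 of day 7 at 30 mg/m3, with 7 counts of Myl7, had 16 counts of Nppa and 9 of the related gene Nppb. These were the highest counts of the 30 mg/m3 study, shared for Nppb with air rat 82 of day 27, also at 9.

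Genes of limb muscle were mostly read little, with the exception of Neb, the giant thin filament protein nebulin, at 108.1 to 716.5 CPM, which made up most of the summed skeletal list. The other 18 genes of that list each stayed at 8.28 CPM or less. Myh4, the fast myosin of limb muscle, had at most 3 counts in a library, Myh1 at most 6 and Myh2 at most 9. Acta1, the skeletal actin, had 2 to 33 counts. In GRCr8, Tnnt1, the slow skeletal troponin gene, lies next to Tnni3, and Tnni1 lies 2 genes from Tnnt2; Tnnt1 had at most 5 counts and Tnni1 at most 11 in any library, while Tnni3 reached 556 and Tnnt2 572.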
